A study of Mus musculus with 4 samples.

Results

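The genes described here write, erase and read DNA methylation. They are the methyltransferase genes Dnmt1, Dnmt3a and Dnmt3b, the maintenance cofactor Uhrf1, the dioxygenase genes Tet1, Tet2 and Tet3, and the reader Mbd2. They were chosen by name, and all 8 were found among the 35275 genes of the deposited table. RNA sequencing gave their expression in mouse DNT, short for double-negative regulatory T cells, which carry an αβ T cell receptor but lack CD4 and CD8. 2 libraries came from DNT of OX40-knockout mice and 2 from DNT of wild-type mice, both of the C57BL/6 strain. OX40, encoded by Tnfrsf4, is a costimulatory receptor that activated T cells display. Naive CD4 T cells were the source of the DNT in both groups, and the sort kept cells with CD3 and TCRαβ that had no NK marker, CD4 or CD8. Age, the part of the gene that was removed and the origin of each library from its own mouse or culture are not stated in the labels. The p-values therefore reflect only how far these libraries lay from each other, which may be technical.

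DNA methylation in mammals sits mainly on cytosines followed by guanine, called CpG. DNMT3A and DNMT3B place it on unmethylated DNA, and DNMT1 copies it to the new strand after replication, at sites to which UHRF1 guides it. TET enzymes oxidise 5-methylcytosine, which begins its removal, and MBD2 binds methylated CpG and brings in the NuRD repressor complex. In T cells this system helps keep lineage genes silent through division. DNMT1 and DNMT3A are known to take part in heritable silencing of Cd4, a gene that the starting cells express and whose surface protein the sorted DNT lack.

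Start-site windows of 7 of the 8 genes were taken from RefSeq (build GRCm38.p6, 250 bases before and 50 after a start), 12 windows in all. They were richer in CpG than most. The median window of the 32841 in the table held 7 CpGs, whereas Tet2 had 57, more than 99.8% of all windows, and Dnmt3a had 46, 47 and 18 at its 3 annotated starts. Dnmt3b had 30. Dnmt1 had 2, 12 and 33 at 3 starts and Uhrf1 12 and 33 at a pair of starts, so a window of each gene lay near the middle or low end and another near the top. 3 octamers of the kind that E2F factors bind, TTTGGCGC, TTTCGCGC and TTTCCCGC, were searched for on both strands. Of all windows, 1.85% held at least 1 of them. Among the 12 windows only the CpG-richest of Dnmt1 and of Uhrf1 did, and the sequences of both are shown for that reason, with the octamers in capitals. E2F factors are known as activators of genes of the S phase, when DNA is copied. A match is a description of the letters and not evidence of a bound site.
Dnmt1, chr9:20952574-20952873, minus strand: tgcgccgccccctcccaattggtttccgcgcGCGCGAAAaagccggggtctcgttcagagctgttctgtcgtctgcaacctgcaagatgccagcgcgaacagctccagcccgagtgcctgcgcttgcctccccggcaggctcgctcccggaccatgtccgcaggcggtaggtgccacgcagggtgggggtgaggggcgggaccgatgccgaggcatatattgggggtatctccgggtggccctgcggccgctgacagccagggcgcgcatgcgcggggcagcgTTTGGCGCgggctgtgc
Uhrf1, chr17:56304063-56304362, plus strand: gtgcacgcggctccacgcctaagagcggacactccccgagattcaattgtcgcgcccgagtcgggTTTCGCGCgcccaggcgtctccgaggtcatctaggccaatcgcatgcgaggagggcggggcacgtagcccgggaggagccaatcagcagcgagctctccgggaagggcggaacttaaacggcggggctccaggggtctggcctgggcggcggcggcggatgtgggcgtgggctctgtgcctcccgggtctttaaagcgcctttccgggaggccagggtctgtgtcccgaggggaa

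In Dnmt1, GCGCGAAA is TTTCGCGC read on the other strand. The octamer TTTGGCGC occurred in 0.515% of all windows, TTTCGCGC in 0.323% and TTTCCCGC in 1.07%. Tet3 and Tet1 are set beside each other because their windows held similar numbers of CpG, 22 and 17, whereas their transcripts stood far apart. Here the capitals mark CpG.
Tet3, chr6:83441629-83441928, minus strand: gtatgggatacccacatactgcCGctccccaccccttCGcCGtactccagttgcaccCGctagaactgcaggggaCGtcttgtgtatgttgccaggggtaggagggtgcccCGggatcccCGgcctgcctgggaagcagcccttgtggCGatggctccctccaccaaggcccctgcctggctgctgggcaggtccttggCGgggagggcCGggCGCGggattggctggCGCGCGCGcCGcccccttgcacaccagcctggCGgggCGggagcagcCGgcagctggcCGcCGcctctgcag
Tet1, chr10:62887275-62887574, minus strand: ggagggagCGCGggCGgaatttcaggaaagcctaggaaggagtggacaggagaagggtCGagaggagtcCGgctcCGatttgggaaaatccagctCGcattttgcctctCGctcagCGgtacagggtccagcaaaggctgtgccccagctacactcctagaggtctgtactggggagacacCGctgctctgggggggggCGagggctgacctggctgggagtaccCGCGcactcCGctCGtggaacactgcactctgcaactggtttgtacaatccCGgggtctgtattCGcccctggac

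**Figure D1:**
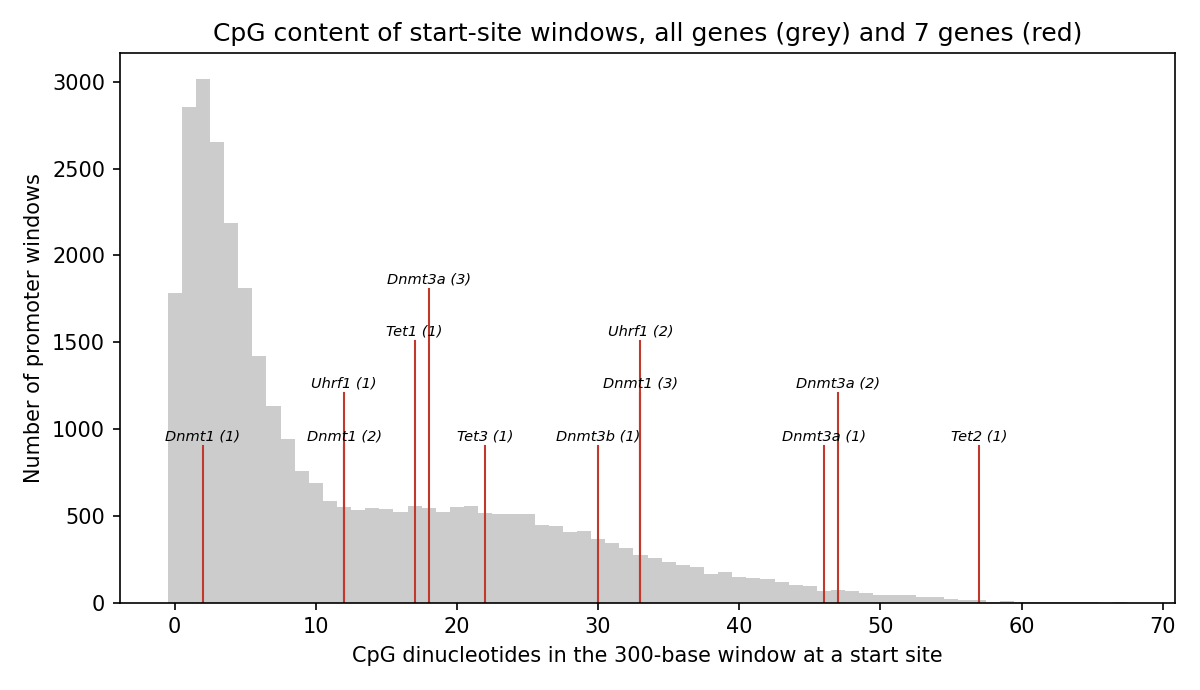
Number of CpG dinucleotides in 300-base windows at annotated start sites (horizontal axis) against the number of windows (vertical axis), for 32841 windows in grey, with the 12 windows of 7 DNA methylation genes as red lines labelled by gene and start number. The upstream window of Dnmt1, with 2 CpGs, lies below the median of 7, and the other 11 lie above it.

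Values are RPKM, reads divided by the length of the transcript and by the depth of the library. Library totals worked out from the values were 22220888 and 22571186 reads in OX40-knockout 1 and 2, and 23215528 and 24395743 in wild-type 1 and 2. OX40-knockout 1 stood apart from the other libraries, with a score of 34.2 on the first principal component (71% of the variance) where the others lay between -18.1 and -0.06. In that library genes of high GC content also read high, with a median deviation of 0.21 on the log2 scale in the fifth of genes richest in GC. The αβ T cell genes Cd3d, Cd3e, Cd3g, Cd247, Trac and Thy1 were present in the 4 libraries, and their sum was between 1983 and 2421 RPKM. The B cell genes Ms4a1 and Pax5 were at 0 in all 4. The sum of the NK cell genes Ncr1, Klrb1c, Eomes and Klra8 went with the replicate number and reached 119 and 308 RPKM in knockout libraries, against 213 and 329 RPKM in wild-type libraries. Eomes and Klrb1c made up most of it, and the other NK cell genes differed by larger factors. Ncr1 was at 0.183 and 7.49 RPKM in the knockout, against 0.408 and 7.93 RPKM in the wild-type. Klra8 was at 0.382 and 8.8 RPKM, against 0.475 and 11.4 RPKM. Tnfrsf4 itself was still read in the knockout, at 12.1 and 9.38 RPKM, against 18.2 and 12.3 RPKM in the wild-type, and without the removed part named these reads check no label. In a mixture of cells, fewer cells of a type and less RNA per cell cannot be told apart.

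DNT of both genotypes carried transcripts for maintenance and de novo methylation, for oxidation by TET3 and TET2, and for the reader MBD2. Mbd2 was highest, between 185 and 209 RPKM, above 95.7% of the 11625 genes tested. Uhrf1 followed at 86.2 to 109 RPKM. Dnmt1, at 56.3 to 64.7 RPKM, and Dnmt3a, at 51.5 to 62.9 RPKM, overlapped, so their order was not settled. Tet3 stood just below, at 43.1 to 46.4 RPKM. The lower part of the order held Tet2 at 10.5 to 14 RPKM and Dnmt3b at 5 to 6.26 RPKM. Tet1 was lowest, at 0.457 to 0.904 RPKM, and was the only member under the mean of 1 RPKM required for testing. The median tested gene stood at 15.8 RPKM, so 5 of the 8 were above it. Apart from Dnmt1 and Dnmt3a, no neighbours in this order overlapped over the 4 libraries.

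**Figure D2:**
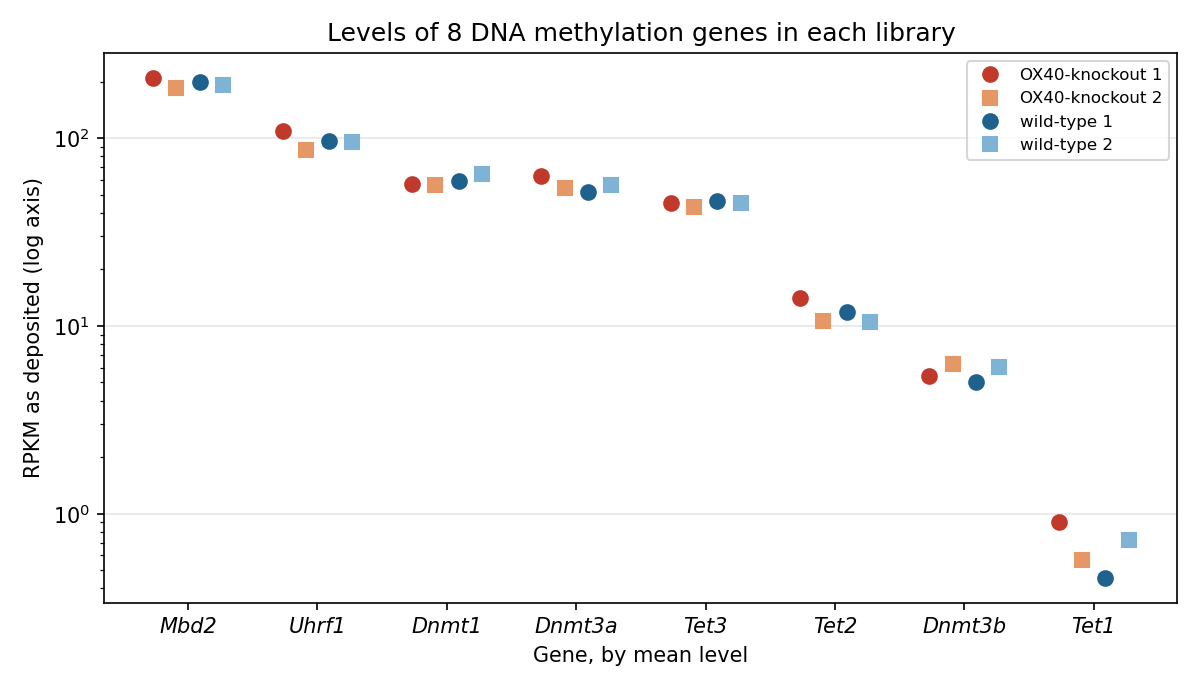
RPKM of the 8 genes in each library on a log axis, ordered by mean level, with knockout libraries in red and orange and wild-type libraries in blue. The genes keep their order in all 4 libraries except Dnmt1 and Dnmt3a, and the spread between libraries is small beside the range from Tet1, under 1 RPKM, to Mbd2, near 200 RPKM.

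The order between genes depends on the transcript length that each value was divided by. The lengths were taken as those nearest the annotated mean that give whole reads in all 4 libraries within a tolerance of 0.005 read, and for Dnmt3a, Dnmt3b, Uhrf1 and Mbd2 they equalled that mean when rounded. They were 2324 bases for Dnmt3a, whose longest annotated transcript has 9685, 4960 for Tet3 (longest 10904) and 1037 for Mbd2 (longest 1953), but 9179 for Tet2, which is its longest. Divided by the longest transcript instead, a choice made after seeing the data, Dnmt3a averaged 13.5 RPKM and not 56.3, and Tet3 averaged 20.4 RPKM and not 44.9. By these means Tet3 was then above Dnmt3a, and the other 6 kept their ranks. The libraries then overlapped between Uhrf1, at 54.2 to 68.3 RPKM, and Dnmt1, at 52.8 to 60.6 RPKM, and between Dnmt3a, at 12.3 to 15.1 RPKM, and Tet2. The level of Dnmt3a relative to Dnmt1 and Tet2 is therefore a matter of scale by up to 4.17 times. A ratio of RPKM between libraries is free of this choice, but log2(RPKM + 1) shrinks the change of low genes such as Tet1, by more at a greater length. Recovered reads per library ran from 57 to 108 for Tet1, 410 to 521 for Dnmt3b and 6936 to 8679 for Dnmt1. For Tet1, Tet3 and Dnmt3a the reads may be a multiple of those given, since a multiple of the length suits the values as well.

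The comparison of OX40-knockout with wild-type DNT asks whether loss of the receptor goes with other levels of these enzymes. No member passed. With limma on log2(RPKM + 1) and Benjamini-Hochberg adjustment, 0 of the 7 tested members and 0 of 11625 genes (0%) had an adjusted p under 0.05. 162 genes (1.39%), none of them a member, had an unadjusted p under 0.05. The largest change was -0.13 for Dnmt1. The median change of the 7 was 0.02, beside -0.03 over all genes tested. In 2 of the 7, Dnmt1 and Tet3, both knockout libraries were below both wild-type libraries, and in none were both above. Over all tested genes the groups did not overlap in 26.4%, with 17.8% lower and 8.66% higher in the knockout, so 2 of 7 is near the background. The excess of lower genes depended on scaling, at 2067 lower and 1007 higher as deposited, but 1485 and 1440 with trimmed-mean factors and 1500 and 1496 with GC correction.

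Dnmt1, the maintenance methyltransferase, gave the clearest separation. It stood at 56.8 and 56.3 RPKM in the knockout libraries, against 59.4 and 64.7 RPKM in the wild-type libraries. The knockout libraries were nearly equal, and both lay under both wild-type libraries. Exact 95% Poisson intervals were 55.4 to 58.1 and 55 to 57.7 RPKM in the knockout, against 58.1 to 60.8 and 63.3 to 66.1 RPKM in the wild-type, so the wild-type libraries also differed from each other beyond counting error. These intervals cover counting error only. The means were 56.5 ± 0.304 RPKM in the knockout and 62.1 ± 3.73 RPKM in the wild-type (SD, n = 2 each). The log2 change of -0.13 (SE 0.10, 95% interval -0.40 to 0.14) did not pass limma's test (adjusted p = 0.975). Its groups stayed apart with trimmed-mean factors and with GC correction, and leaving out 1 library at a time moved the change between -0.19 and -0.07. Where groups do not overlap, leaving out 1 library cannot turn the sign. Between the knockout libraries Dnmt1 differed by 0.01 on the log2 scale, less than 97.8% of tested genes, although those 2 libraries differed widely elsewhere. That share was worked out for no other member.

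Uhrf1 encodes the protein that finds hemimethylated CpG behind the replication fork and guides DNMT1 there. It stood at 109 and 86.2 RPKM in the knockout libraries, against 96.2 and 95.5 RPKM in the wild-type libraries. The knockout libraries lay on either side of the wild-type pair, and their 95% Poisson intervals, 106 to 112 and 83.7 to 88.8 RPKM, were far apart. The group means hid this, at 97.5 ± 15.9 RPKM in the knockout and 95.9 ± 0.488 RPKM in the wild-type (SD, n = 2 each), with a log2 change of 0.01 (SE 0.14, limma adjusted p = 0.99). The change was -0.15 without OX40-knockout 1 and 0.18 without OX40-knockout 2. Uhrf1 thus did not follow its partner Dnmt1. In RPKM on the deposited lengths it was 1.91 and 1.53 times Dnmt1 in the knockout libraries, against 1.62 and 1.48 times in the wild-type ones.

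The de novo enzymes differed in level more than between genotypes. Dnmt3a, which is the main de novo methyltransferase of mature T cells, stood at 62.9 and 54.4 RPKM in the knockout libraries, against 51.5 and 56.6 RPKM in the wild-type libraries. OX40-knockout 1 was the highest, and OX40-knockout 2 lay between the wild-type libraries. The log2 change was 0.11 (SE 0.13, limma adjusted p = 0.975), and it was 0.01 without OX40-knockout 1. With GC correction the knockout libraries lay above both wild-type libraries, at a log2 change of 0.08, again without passing.

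Dnmt3b, the de novo enzyme best known from early embryos, stood at 5.4 and 6.26 RPKM in the knockout libraries, against 5 and 6.04 RPKM in the wild-type libraries. It followed the replicate number and not the genotype, with library 2 of each group above library 1, and it was the only member lower in OX40-knockout 1 than in OX40-knockout 2. The 95% Poisson intervals of the knockout libraries overlapped, at 4.9 to 5.94 and 5.72 to 6.83 RPKM. Those of the wild-type libraries lay just apart, at 4.53 to 5.51 and 5.54 to 6.58 RPKM. The NK cell genes, at the sums given above, also followed the replicate number. So did the summed dendritic and myeloid genes, at 2.94 and 7.24 RPKM in the knockout libraries, against 3.9 and 9.63 RPKM in the wild-type libraries. Within that sum Csf1r (0.115 and 0.0724 RPKM) and Flt3 (0.0315 and 0.0103 RPKM) went the other way in the knockout libraries. The part of NK cell genes or of dendritic and myeloid genes in the Dnmt3b result was not tested. The log2 change was 0.07 (SE 0.17, limma adjusted p = 0.975), and it was below 0 without OX40-knockout 2 (-0.02) and without wild-type 1 (-0.05). In RPKM, Dnmt3a was between 8.7 and 11.6 times Dnmt3b in all 4 libraries, on the deposited lengths. On the longest transcripts Dnmt3a averaged 13.5 and Dnmt3b 4.64 RPKM, so the gap was much smaller.

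**Figure D3:**
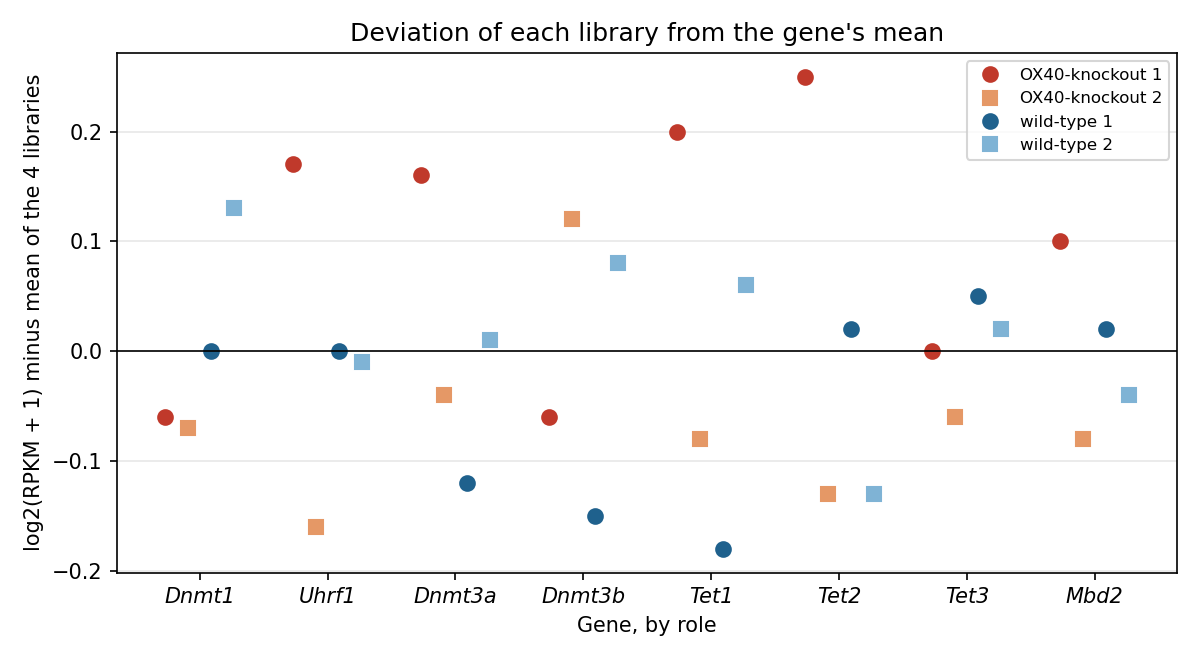
Deviation of log2(RPKM + 1) from the mean of the 4 libraries for each gene, ordered by role, with knockout libraries in red and orange and wild-type libraries in blue. OX40-knockout 1 is the highest point for Uhrf1, Dnmt3a, Tet1, Tet2 and Mbd2, at 0.10 to 0.25, while for Dnmt1 both knockout points lie together at -0.06 and -0.07.

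The 3 TET genes were unequal. Tet3 was between 49.6 and 102 times Tet1 and between 3.2 and 4.31 times Tet2 in RPKM on the deposited lengths. On the longest transcripts Tet3 averaged 20.4, Tet2 11.7 and Tet1 0.248 RPKM, so the gap to Tet2 was smaller. Tet3, whose product oxidises 5-methylcytosine in many adult tissues, stood at 44.9 and 43.1 RPKM in the knockout libraries, against 46.4 and 45.4 RPKM in the wild-type libraries. It varied least of the 8, with a span of 0.11 on the log2 scale. Both knockout libraries were lower, but the highest knockout and lowest wild-type values lay within each other's Poisson intervals, 43.6 to 46.1 and 44.2 to 46.7 RPKM. The log2 change was -0.06 (SE 0.10, limma adjusted p = 0.975). The groups overlapped with trimmed-mean factors and with GC correction, where the change was -0.14.

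Tet2, which restrains clonal growth of blood cells, stood at 14 and 10.6 RPKM in the knockout libraries, against 11.8 and 10.5 RPKM in the wild-type libraries. OX40-knockout 1 was the high library, and OX40-knockout 2 equalled wild-type 2 within counting error, with Poisson intervals of 10.1 to 11 RPKM in both. The log2 change was 0.12 (SE 0.18, limma adjusted p = 0.975). It was -0.07 without OX40-knockout 1 and 0.31 without OX40-knockout 2, so its sign rested on that library. Tet2 had the lowest transcript GC content of the 8, 45.5%, below the median of 50.5% over tested genes. It was high in OX40-knockout 1, a library in which genes of high GC content read high at the median. With GC correction the change was 0.22. The part of GC content in the Tet2 values was not tested.

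Tet1, the enzyme best known from embryonic stem cells, was near the floor. It stood at 0.904 and 0.569 RPKM in the knockout libraries, from 108 and 69 reads, against 0.457 and 0.724 RPKM in the wild-type libraries, from 57 and 95 reads. The groups overlapped, and the 95% Poisson intervals ran from 0.346 to 0.592 RPKM for wild-type 1, the lowest, and from 0.742 to 1.09 RPKM for OX40-knockout 1, the highest. With no filter on low values its log2 change was 0.12 and did not pass.

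Mbd2, the reader, stood at 209 and 185 RPKM in the knockout libraries, against 198 and 191 RPKM in the wild-type libraries. The wild-type libraries lay between the knockout libraries, as for Uhrf1. The means were 197 ± 17 RPKM in the knockout and 194 ± 5.06 RPKM in the wild-type (SD, n = 2 each), with a log2 change of 0.02 (SE 0.11, limma adjusted p = 0.988). Without OX40-knockout 1 the change was -0.07. In RPKM on the deposited lengths Mbd2 was 1.92 and 2.29 times Mbd3 in the knockout, against 2.29 and 2.15 times in the wild-type. MBD3 is the related NuRD subunit, which binds methylated CpG poorly in mammals.

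**Figure D4:**
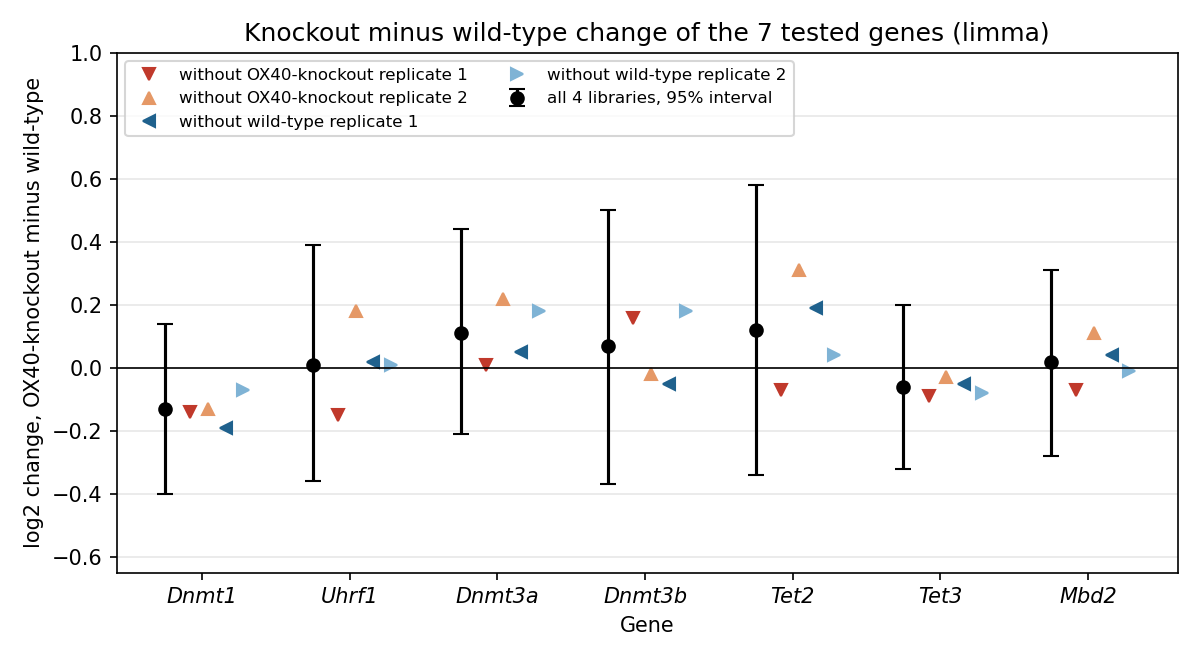
Log2 change of RPKM + 1, OX40-knockout minus wild-type, for the 7 tested genes with all 4 libraries (black points, bars are limma's 95% intervals) and with 1 library left out (coloured triangles, no interval drawn). All black intervals include 0, and the triangles stay below 0 for Dnmt1 and Tet3 but fall on both sides for Uhrf1, Dnmt3b, Tet2 and Mbd2. For Dnmt1 and Tet3 the constant sign follows from groups that do not overlap and adds nothing to it.

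Much of the variation of these genes lay inside the knockout group. 7 of the 8 members were higher in OX40-knockout 1 than in OX40-knockout 2, where 49% of tested genes were. The gaps on the log2 scale were 0.38 for Tet2, 0.33 for Uhrf1, 0.28 for Tet1, 0.20 for Dnmt3a and 0.18 for Mbd2. For Tet3 and Dnmt1 they were 0.06 and 0.01, with overlapping Poisson intervals. In the fifth of genes richest in GC the median deviation was 0.21 in OX40-knockout 1 and -0.10 in OX40-knockout 2. Uhrf1, Dnmt3a, Tet3, Dnmt1 and Mbd2 lay above the median transcript GC content, Tet1 and Tet2 below it. Dnmt3b, the member lower in OX40-knockout 1 (a gap of -0.18), also lay above it, at 52.9%. The part of GC content in these gaps was not tested. The median absolute gap over tested genes was 0.25 between the knockout libraries and 0.10 between the wild-type libraries, so the members did not move more than other genes. The widest range over the 4 libraries was 0.39, in Tet1. None reached the 0.5 at which genes of like pattern were to be named, so none are named. Each listed marker of the conventional CD4 and CD8 lineages was highest in OX40-knockout 1. So were Uhrf1, Dnmt3a, Tet1, Tet2 and Mbd2, but Dnmt1, Dnmt3b and Tet3 were not. The marker sum was 78.4 and 43.4 RPKM in the knockout libraries, against 43.4 and 46.2 RPKM in the wild-type libraries. Zbtb7b, a factor of the CD4 lineage, made up the largest share. From wild-type 1 to wild-type 2 the sum rose, as did Dnmt3a and Tet1, while Uhrf1, Tet2 and Mbd2 fell. The part of these markers in the result was not tested.

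Cd4 itself, whose surface protein the sort excluded, was low in 3 libraries and higher in OX40-knockout 1. It stood at 10.1 and 2.06 RPKM in the knockout libraries, from 294 and 61 reads, against 0.82 and 1.97 RPKM in the wild-type libraries, from 25 and 63 reads. OX40-knockout 2 and wild-type 2 lay within each other's Poisson intervals, 1.57 to 2.64 and 1.51 to 2.52 RPKM. The log2 change of 1.32 (SE 0.66) did not pass (limma adjusted p = 0.975). The library with the most Cd4 transcript, OX40-knockout 1, was also highest in Dnmt3a, Uhrf1, Tet1, Tet2 and Mbd2 and second lowest in Dnmt1. With 4 libraries no correlation was computed.

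The wider pathway was read from 9 lists of 102 distinct genes, of which 85 could be tested. As for the members, 0 passed with limma over all genes, and 2 had an unadjusted p under 0.05, Gadd45a and Ifng. The groups did not overlap in 24.7% of the 85, 6 higher and 15 lower in the knockout, beside 26.4% of all tested genes. The median change was -0.01.

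Genes whose proteins work with the writers ranged widely in level. Pcna, the clamp that holds DNMT1 at the fork, was the most abundant of the partner list, at 349 and 426 RPKM in the knockout, against 407 and 418 RPKM in the wild-type libraries. Hells, a chromatin remodeller needed for normal methylation of repeats, had the lowest p among the lower partners. It was at 38.3 and 46.5 RPKM in the knockout, against 48.1 and 53 RPKM in the wild-type (log2 change -0.25, SE 0.14, limma adjusted p = 0.975). Both knockout libraries were below both wild-type libraries in 3 of the 11 tested partners, Hells, Cdca7 and Setdb1, and above them in none, beside 17.8% lower and 8.66% higher over all tested genes. Zfp57, a protector of imprinted methylation, had the lowest p in the other direction, at 1.68 and 1.44 RPKM in the knockout, against 1.44 and 0.928 RPKM in the wild-type. Dnmt3l, the cofactor of de novo methylation in germ cells, was under the filter.

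Since DNMT1 and UHRF1 act at the fork, S phase genes were set beside them. Of 15 tested, 4 were above 0 and 11 below, and the median was -0.04. Beside them, 5051 of all 11625 tested genes were above 0, with a median of -0.03. In 6 of the 15 both knockout libraries were below both wild-type libraries, as for Dnmt1. Over all tested genes this held for 17.8% as deposited, where lower genes were in excess, an excess not seen with trimmed-mean factors or GC correction. Rrm2, the small subunit of ribonucleotide reductase, was at 183 and 194 RPKM in the knockout, against 196 and 213 RPKM in the wild-type libraries. Rrm1, the large subunit, was at 43.7 and 51.8 RPKM, against 54.6 and 54.2 RPKM. E2f1, a transcription factor of this phase, was at 24.1 and 16.5 RPKM in the knockout, against 16.9 and 18.2 RPKM in the wild-type, high in OX40-knockout 1 as Uhrf1 was. None of the 15 passed, and the part of cell division in the Dnmt1 values was not tested.

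Among the other methyl-CpG readers the median change was -0.05 over 8 genes. Mbd3 was the most abundant, at 109 and 80.8 RPKM in the knockout, against 86.3 and 88.7 RPKM in the wild-type libraries, so that OX40-knockout 1 was again the high library. Zbtb33, which encodes the reader Kaiso, was at 7.91 and 9.87 RPKM in the knockout, against 10.9 and 10.6 RPKM in the wild-type (log2 change -0.25, SE 0.15, limma adjusted p = 0.975). Mbd1 was at 34.4 and 26.4 RPKM in the knockout, against 26.8 and 25.6 RPKM in the wild-type.

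The NuRD complex, which MBD2 brings to methylated DNA, was read from its listed subunit genes. All 12 were tested, 6 with a change above 0 and 6 below. Hdac1, a histone deacetylase, was the only one whose groups did not overlap, and it was lower in the knockout. Over all tested genes the groups did not overlap in 26.4%. Mta2 was the most abundant, at 264 and 242 RPKM in the knockout, against 244 and 254 RPKM in the wild-type libraries. Chd3, a remodelling ATPase, was at 80.9 and 66.8 RPKM in the knockout, against 84.1 and 80.2 RPKM in the wild-type. Mta1 was high in OX40-knockout 1, at 110 and 80.2 RPKM in the knockout, against 85.5 and 82.5 RPKM in the wild-type.

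Removal of oxidised bases by glycosylases and repair gave 14 tested genes with a median of 0.05. The most abundant was Gadd45g, a stress gene of a family linked to demethylation, at 328 and 331 RPKM in the knockout, against 319 and 289 RPKM in the wild-type libraries. Gadd45a had the lowest p of the list. It was at 7.43 and 4.97 RPKM in the knockout, against 4.02 and 3.26 RPKM in the wild-type, with both knockout libraries higher (log2 change 0.62, SE 0.23, limma adjusted p = 0.975). Gadd45b, named after its values were seen, had the largest change of the list, 1.09, but its groups overlapped, at 34.6 and 11.2 RPKM in the knockout, against 11.5 and 6.7 RPKM in the wild-type. Neil3, a glycosylase of dividing cells, was at 21.8 and 24.6 RPKM in the knockout, against 24.6 and 29.4 RPKM in the wild-type.

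TET enzymes need 2-oxoglutarate, which isocitrate dehydrogenases make, and they bind the sugar transferase OGT. Ogt was the most abundant of this list and its lowest p among the lower genes. It was at 131 and 155 RPKM in the knockout, against 168 and 176 RPKM in the wild-type libraries, with both knockout libraries lower (log2 change -0.27, SE 0.13, limma adjusted p = 0.975). Idh2, the mitochondrial isocitrate dehydrogenase that uses NADP, was high in OX40-knockout 1, at 17.2 and 9.63 RPKM in the knockout, against 9.09 and 9.89 RPKM in the wild-type. The median over the 7 tested was 0.02.

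The supply of methyl groups gave 11 tested genes with a median of -0.08. Ahcy, which clears the methyltransferase inhibitor S-adenosylhomocysteine, was at 262 and 212 RPKM in the knockout, against 196 and 183 RPKM in the wild-type libraries, with both knockout libraries higher (log2 change 0.32, SE 0.14, limma adjusted p = 0.975). Mthfd2, a mitochondrial folate enzyme, was the most abundant, at 221 and 267 RPKM in the knockout, against 249 and 253 RPKM in the wild-type. Shmt1, the cytosolic serine hydroxymethyltransferase, was at 22 and 29.4 RPKM in the knockout, against 29.2 and 32 RPKM in the wild-type.

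**Figure D5:**
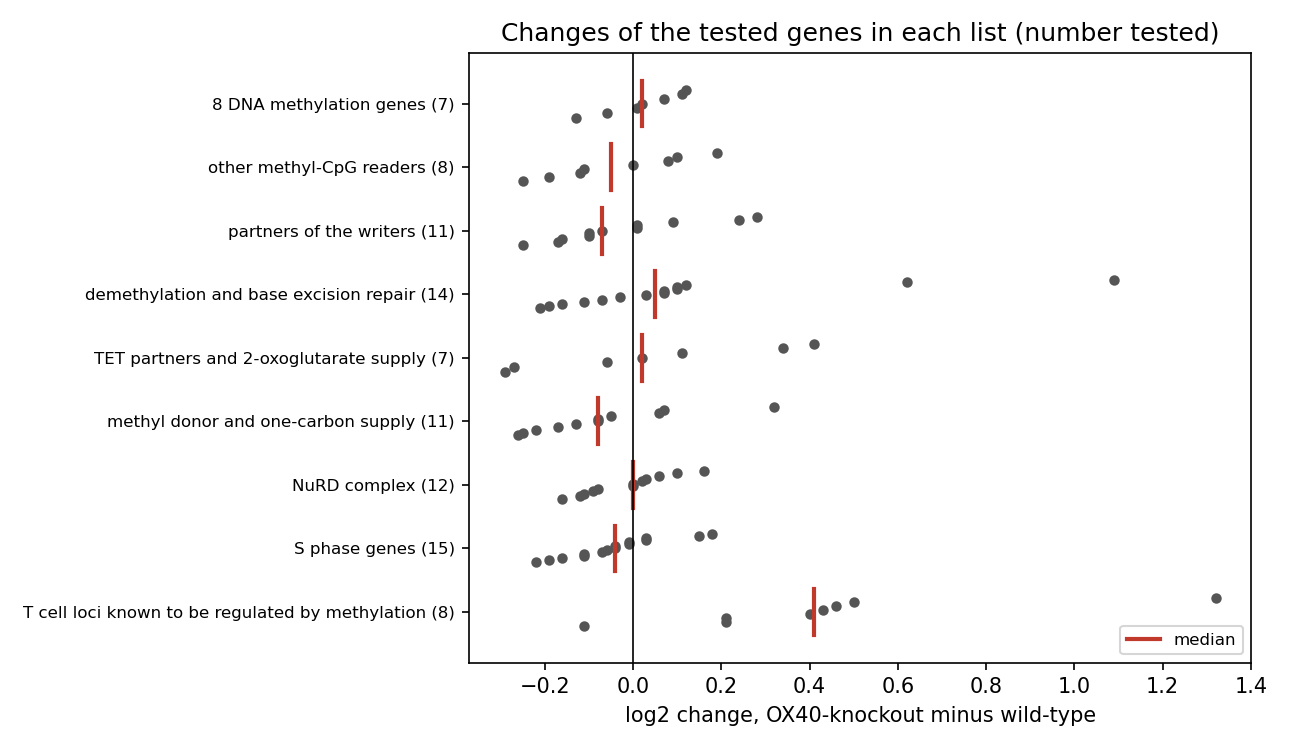
Log2 change of RPKM + 1, OX40-knockout minus wild-type (horizontal axis), of each tested gene in the 8 DNA methylation genes and in 8 lists, with the number tested in brackets and a red bar at the median. The DNA methylation genes lie within -0.13 and 0.12, and the T cell loci have the highest median, 0.41, with Cd4 the farthest point at 1.32.

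Genes whose silence or activity is known to depend on methylation were read last. Of 10 germline genes silenced by promoter methylation in somatic cells, such as Dazl, Mael and Ddx4, 3 were at 0 in the 4 libraries and none exceeded 0.209 RPKM in any library, so none was tested. Of 8 tested T cell loci, 7 were higher on average in the knockout, with a median of 0.41, but without OX40-knockout 1 the median was 0.04 and 4 were higher. Over all tested genes 5051 of 11625 were higher with all libraries, and the median was -0.03 with or without OX40-knockout 1. Ifng, encoding interferon gamma, was at 60.5 and 56.2 RPKM in the knockout, against 37.3 and 45.2 RPKM in the wild-type libraries (log2 change 0.50, SE 0.14, limma adjusted p = 0.975). Gzmb, encoding granzyme B, was the most abundant, at 7506 and 8236 RPKM in the knockout, against 7206 and 6434 RPKM in the wild-type. Prf1, encoding perforin, was at 355 and 1182 RPKM in the knockout, against 574 and 856 RPKM in the wild-type. It followed the replicate number, as did the sum of the NK cell genes and that of the dendritic and myeloid genes. The part of these genes in the Prf1 values was not tested.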

How the data were processed

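Per the labels' protocols, RNA was taken with Trizol and libraries were made with a TruSeq kit. Bowtie 0.12.2 and the build mm8 are listed in the submitters' processing notes. The annotation, counting tool and strand setting were not given in the sources used here, and reads of overlapping or antisense genes may be mixed. The authors deposited RPKM values. The header names no unit, and RPKM was inferred because the values are whole reads at the annotated length in 87.5% to 88.3% of low values of single-transcript genes (tolerance 0.02 read). Whole reads were recovered in all 4 libraries for 99.1% of 20996 genes above 0. They sum to slightly more than the library totals, so some genes may carry a multiple. GENCODE vM21 gave symbols for 34490 of 35275 IDs.

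Values were tested as log2(RPKM + 1), which understates changes of low genes, with limma 3.58.1 in R 4.3.3 (trended empirical Bayes). The 11625 genes that averaged 1 RPKM or more were fitted in all 4 libraries together, with no block. p-values were adjusted over all genes tested. Exact permutation of these libraries gives no two-sided p below 0.333, so none was used. The fit was tested on simulated data with planted changes far larger than those of the members. The simulation held no outlying library and no GC trend, so it does not speak to changes as small as the members'. Poisson intervals are exact, two-sided and from recovered reads. Other genes were named by rule: in each list the lowest p in each direction and the most abundant gene. The members and lists were chosen with earlier results of these data known. Alternatives were another pseudocount, filter, scaling, GC correction, a replicate block, each library left out, and limma-voom on recovered reads (added after seeing the data). The rest was done in Python 3.11.15 with pandas 2.3.3, numpy 2.4.6 and, for plots, matplotlib 3.10.9.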

Additional observations from a re-analysis of the deposited data

How the results depend on the processing

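No member passed limma's adjusted threshold in any of 13 alternatives, nor did any gene of the 9 lists. Over all genes the count of calls was 1 with quantile normalization (Gm28438), 5 with the replicate block (Dynlt1b, Gm28438, Gm47283, Tmem181b-ps and Wdfy1, named after their values were seen) and 0 to 1 with 1 library left out, the 1 call (Gm47283) being without wild-type 2. limma-voom called 0, with 129 genes at an unadjusted p under 0.05. That count was 603 with no filter, 103 with a mean of at least 5 RPKM, 373 with the block, 438 with the block and GC correction, and 76 to 3832 with 1 library left out, the highest without OX40-knockout 2 and 524 without OX40-knockout 1. Uhrf1 was the only member in any of these counts, without OX40-knockout 2 (0.0491, adjusted 0.151). Genes whose groups do not overlap numbered 5393 with no filter and 5488 to 9972 with 1 library left out, where a group of 1 separates more easily. Members so separated numbered 1 with TMM factors (Dnmt1) and 3 to 6 with 1 library left out. Dnmt1, Dnmt3a and Tet3 kept their sign throughout. With 1 library left out, this follows for Dnmt1 and Tet3 from groups that do not overlap. The sign turned for Dnmt3b without OX40-knockout 2 (-0.02) and without wild-type 1 (-0.05), for Tet2 without OX40-knockout 1 (-0.07), and for Mbd2 with quantile normalization (-0.01), without OX40-knockout 1 (-0.07) and without wild-type 2 (-0.01). For Uhrf1 it turned with quantile normalization (-0.00058), without OX40-knockout 1 (-0.15) and with GC correction, alone or with the block (-0.02 each). With 1 library left out, the changes ran from -0.05 to 0.18 for Dnmt3b, -0.15 to 0.18 for Uhrf1, -0.07 to 0.31 for Tet2 and -0.07 to 0.11 for Mbd2. The cause was not tested. The replicate numbers are not said to pair libraries. Deviations of same-numbered libraries correlated at 0.469 across 11625 genes, which are not independent. With both replicate numbers in each group, the block cannot alter a log2 change, only its SE and p. The unchanged log2 changes of the members are therefore no check on pairing. A left-out library leaves a group of 1, assumed to vary like the other. With 2 libraries a group, the intervals admit changes of up to 0.58 (Tet2). Depth limits Tet1.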
